A study of Mus musculus with 31 samples.

Results

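Ubtf, Chd5, Mlx and Gse1 are genes of nuclear regulators, and each had 1 cassette exon measured by RASL-seq in the cortex of Huntington's disease mice. The 4 events were selected by gene symbol, as every event named Ubtf, Chd5, Mlx or Gse1, among 1922 events in the series, and all 4 were listed in all 31 mice. The genes themselves had been picked from the change in exon exclusion between mutant and wild-type (WT) mice, so those changes are given here as a description, with no p-value. Where such a change is said to pass the threshold or not, this shows how the fit moved with mice and settings. It is not a test of these genes. RASL-seq anneals pairs of oligonucleotides to either side of a splice junction in poly(A) RNA, ligates them and counts the ligated pairs. Exclusion is the share of an event's counts that came from the junction leaving the exon out, in percent. Different oligonucleotide pairs read the 2 junctions, so exclusion is compared between mice and is not a measured share of transcripts. The design asks whether exclusion differs between mutant and WT cortex, in a transgenic line and with 1 or 2 mutant alleles in a pair of knock-in lines.

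R6/2 mice, on a B6CBA background, carry an exon 1 fragment of human HTT as a transgene under the human HTT promoter, and 3 of them (HD) were compared with 3 non-transgenic mice (WT) at 3 months of age. Q150 knock-in mice, of a B6.129P2 line in which the mutant protein is made from the mouse Htt gene, had 1 mutant Htt allele with 150 glutamines (HET, n = 4) or 2 (HOMO, n = 4) and were taken at 7 months. Q175 knock-in mice, of a B6J.129S1 line, had 1 mutant allele with 175 glutamines (HET, n = 4) or 2 (HOMO, n = 3) and were taken at 18 months. The 10 knock-in WT mice carry 7 glutamines in both alleles. The labels conflict on the line, since titles call every knock-in mouse Q150 and the genotypes of all mutants name Q175, so mutants were assigned by the glutamine number in their genotype. Titles and genotypes do not divide the WT mice by line, and mutants were set against the 5 WT mice whose files list the same events, called here the Q150 set and the Q175 set. The names of the deposited files divide all knock-in mice in the same way. All mice were untreated, the sexes were balanced per the study's methods, and line and age cannot be told apart. The samples are whole cortex of single mice, so fewer cells of a type and less RNA per cell cannot be told apart either. The study's methods count the HOMO mice of the knock-in lines the other way round from the labels, which were followed.

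Ubtf encodes the upstream binding factor, which holds the ribosomal RNA genes in an open state for RNA polymerase I. Its protein binds DNA through a row of HMG boxes, and skipping of the exon measured here is known to shorten one of these boxes and to separate the longer and the shorter UBF forms. Chd5 encodes a chromatin remodeller of the CHD family that is expressed mainly in neurons and joins NuRD-type complexes. Mlx encodes a small helix-loop-helix leucine zipper protein that pairs with MondoA, ChREBP and Mad proteins in the Max network and takes part in the transcription of metabolic genes. Gse1 encodes a coiled-coil protein found with the histone demethylase LSD1, CoREST and HDACs in a repressor complex. A cassette exon whose length is a multiple of 3 can be left out without a change of reading frame, and any other length shifts it.

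The exon of each event is shown because it is the sequence gained or lost when exclusion changes. The positions in the files do not lie on GRCm38, the build the submitters' notes name as mm10: both ends fell on annotated splice sites for 46 of 1853 cassette events (2.48%). Each exon was therefore found in the GENCODE M21 annotation of GRCm38 as the exon, in the gene of the same name, whose flanking exons lie as far apart as the positions in the file. Of 1810 cassette events whose gene was annotated, 1773 had such an exon, and 1769 had it at a single place, the 4 events here among them. All 4 exons lie within coding sequence. In the lines below the bases are those of the annotated transcript, 5′ to 3′, and capitals mark matches to DRACH, the consensus around methylated adenosines (A, G or T, then A or G, then A, C, and last A, C or T).

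Ubtf, chr11:102310926-102311036, minus strand, exon 7 of 20: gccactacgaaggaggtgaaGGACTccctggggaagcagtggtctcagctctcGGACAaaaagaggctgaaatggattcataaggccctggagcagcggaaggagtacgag
Chd5, chr4:152385724-152385838, plus strand, exon 40 of 42: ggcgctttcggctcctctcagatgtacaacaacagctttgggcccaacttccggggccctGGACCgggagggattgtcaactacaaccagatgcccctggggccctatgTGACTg
Mlx, chr11:101088236-101088325, plus strand, exon 3 of 8: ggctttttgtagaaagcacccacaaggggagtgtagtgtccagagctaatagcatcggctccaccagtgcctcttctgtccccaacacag
Gse1, chr8:120574171-120574278, plus strand, exon 12 of 16: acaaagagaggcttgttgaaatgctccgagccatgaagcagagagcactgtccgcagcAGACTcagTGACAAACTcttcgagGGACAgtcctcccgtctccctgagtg

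The Ubtf exon is 111 bases, or 37 codons, and the annotated reading frame has 764 residues with it and 727 without it. The Mlx exon is 90 bases, or 30 codons, and takes the frame from 268 to 298 residues. The Gse1 exon is 108 bases, or 36 codons, and takes the frame from 1187 to 1223 residues. The Chd5 exon differs from these in being 115 bases long, which is not a multiple of 3. With it, the frame closes 2 residues after the exon at 1952 residues. Without it, the frame runs on for 34 other residues past the junction and closes at 1946, so that the Chd5 forms differ in their C-terminal end rather than by an insertion. Annotated coding transcripts that skip the exon exist for Ubtf (5), Mlx (2) and Chd5 (1), and the single annotated transcript that skips the Gse1 exon is not coding. The junctions that the exclusion counts read are shown next, with the 15 bases before the junction in lower case and the 15 after it in capitals.

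Ubtf junction without the exon: aaagtgcggccggatGAGATTATGCGGGAC
Chd5 junction without the exon: cccaccatccagcagACATCTAGCCGTCGT
Mlx junction without the exon: acagcctggatcctgATGATGAGGACAGTG
Gse1 junction without the exon: cggagaagaggaaagAACCAGCCACACAGC

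Letters that the study linked to RNA-binding proteins and to adenosine methylation were searched on the strand of the transcript. TGTGT was in none of the 4 exons, and between 9.79% and 12.2% of annotated exons of the same lengths hold it. TGACT, which is also a match to DRACH, occurred once, at the end of the Chd5 exon, and 14.5% of 1161 exons of that length hold it. DRACH had 4 matches in the Gse1 exon, 2 in the Ubtf exon, 2 in the Chd5 exon and 0 in the Mlx exon, and between 87.0% and 92.4% of exons of these lengths hold at least 1. Base composition was alike, with a GC content of 53.3% to 60.0%.

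The total of all junction counts was 2171709 to 4337557 per mouse in the R6/2 set, 2970207 to 5219877 in the Q150 set and 3351064 to 5256516 in the Q175 set. Depth per event differed widely among the 4. Ubtf had 3550 to 8691 counts per mouse, Chd5 1556 to 5115, Gse1 2162 to 4896 and Mlx 117 to 458. The widest 95% Wilson interval of a single mouse's exclusion was accordingly 13.8 percentage points for Mlx and 4.58 points or less for the other 3. These intervals cover counting error only, since ligated pairs were amplified by PCR without molecular identifiers. Of the markers of cortical cell types, 3 of 10 neuronal genes (Grin1, Mapt, Syt1), 2 or 3 of 7 oligodendrocyte genes (Mag, Mbp and, in knock-in mice, Mobp) and 1 of 4 endothelial genes (Pecam1) were listed, with none of 5 astrocyte and none of 6 microglia genes. The summed neuronal counts were 28204 to 33029 per 1000000 counts in R6/2 HD mice and 35128 to 39537 in R6/2 WT mice, and did not overlap. They were 31651 to 35945 in Q150 HOMO, 31508 to 38817 in Q150 HET and 35770 to 43089 in Q150 WT mice, and 33646 to 38213 in Q175 HOMO, 32626 to 38625 in Q175 HET and 31930 to 40071 in Q175 WT mice, with overlap in each. The summed oligodendrocyte counts were 9001 to 13066 in R6/2 HD and 10880 to 13272 in R6/2 WT mice, 8160 to 14621, 9548 to 16675 and 8102 to 13395 in Q150 HOMO, HET and WT mice, and 6714 to 11418, 7830 to 9079 and 8835 to 11001 in the same groups of the Q175 set. Pecam1 mutant and WT mice overlapped in every comparison. Between the sets it differed, at 42.1 to 97.3 in Q150 WT and 1129 to 1347 in Q175 WT mice. The part of these counts in the results was not tested.

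Exon exclusion of Ubtf, Chd5 and Mlx was higher in every group of mutant mice than in its WT mice by group mean, and that of Gse1 was lower in every group. By fitted value Mlx had the largest rise of the 4 in each comparison, and each gene moved furthest in R6/2, although for Chd5 the R6/2 and Q150 HOMO changes of 0.76 and 0.75 differed by less than their errors, and the latter was 1.07 against all 10 knock-in WT mice. In R6/2 all 4 events had HD and WT mice that did not overlap, as did 41.8% of 1743 events, and all 4 passed an adjusted p of 0.05, as did 28.6%. In Q150 HOMO mice all 4 did not overlap with WT, against 18.2% of 1785 events, and all 4 passed, against 23.9%. In Q150 HET mice 1 event (Ubtf) did not overlap, against 7.45%, and 0 passed, against 3.47%. Of these Q150 HET changes, 3 (Ubtf, Mlx and Gse1) passed with series of mouse numbers as a term, where 7.68% of events did, all 4 against all 10 knock-in WT mice, where 8.26% did, and Gse1 alone with centring on the median event, where 2.24% did. In Q175 HOMO mice 3 of 4 did not overlap, against 13.6% of 1839 events, and the same 3 passed, against 7.07%; Gse1 did neither. None of the 4 passed there without a variance trend, against 2.12% of events, or against all 10 knock-in WT mice, against 4.79%, and all 4 passed with a quasi-binomial model, against 7.4%. In Q175 HET mice all 4 overlapped with WT and 0 passed, where 3.43% of events did not overlap and 0.598% passed. Because the genes were picked on these contrasts, nothing is read from the counts. HET and HOMO mice of a line shared their WT mice.

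**Figure D1:**
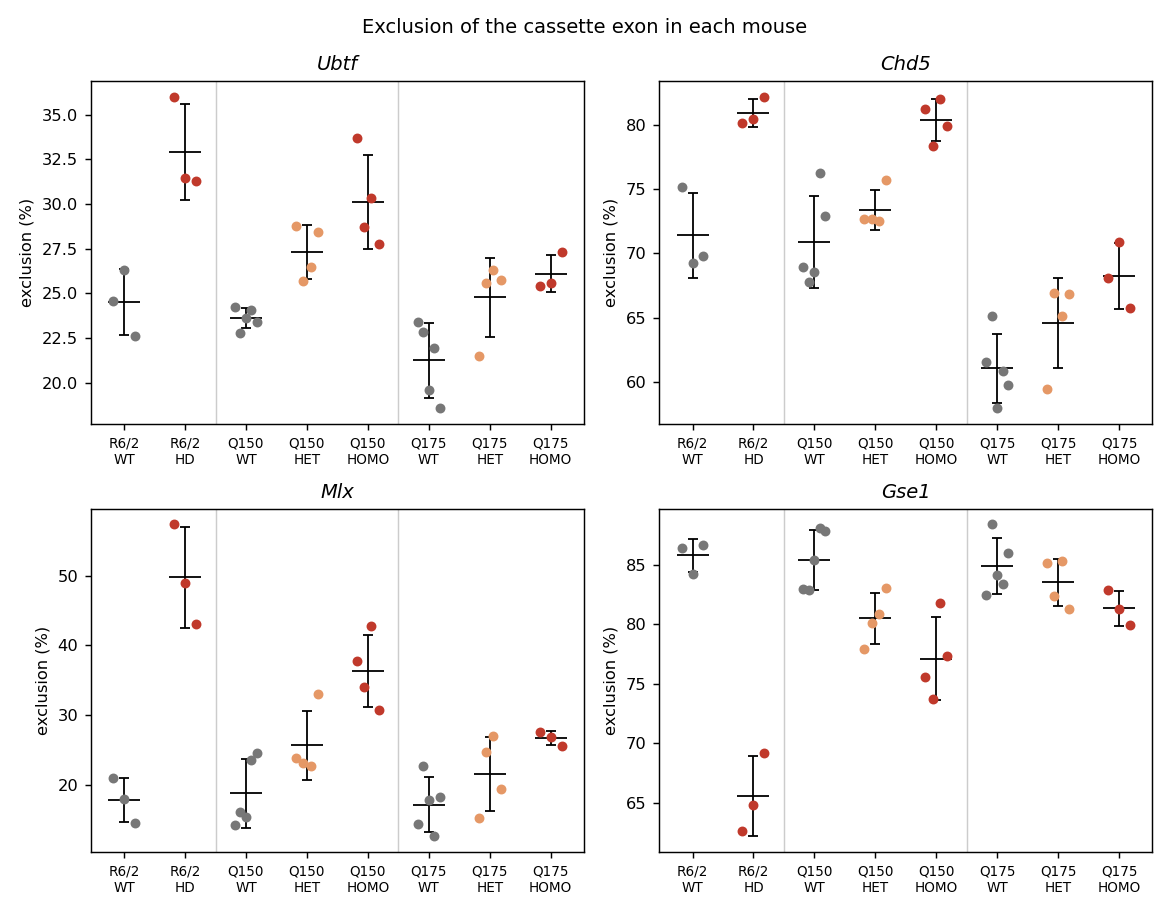
Exclusion in percent (y axis) of each of the 4 cassette exons in every mouse (points) by group (x axis), with the mean and SD as bars and vertical lines between file sets. The y axes do not start at 0. The Mlx exon goes from 17.8% in R6/2 WT to 49.8% in HD mice, while the Gse1 exon goes the other way, from 85.8% to 65.5%.

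Most Ubtf counts came from the junction that keeps the exon in every group. Its exclusion was 24.6%, 26.3% and 22.6% in the R6/2 WT mice and 36.0%, 31.4% and 31.3% in the HD mice. Every HD mouse lay above every WT mouse, and 1 HD mouse stood 4.56 points above the other two. The log2 change in the ratio of excluding to including counts was 0.60 ± 0.12 (SE, 3 against 3 mice), and 435 of 1743 events moved further in that direction. In the Q150 set exclusion was 24.2%, 22.8%, 23.6%, 24.1% and 23.4% in WT mice, which spread over less than 2 points. In HET mice it was 28.7%, 25.7%, 26.5% and 28.4%, and the HOMO mice 33.7%, 28.7%, 30.3% and 27.7%. All HET and all HOMO mice lay above all 5 WT mice, with log2 changes of 0.28 ± 0.10 and 0.48 ± 0.10 (SE). HOMO and HET mice overlapped, with a log2 difference of 0.20 and a 95% interval of -0.02 to 0.41.

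Ubtf in the Q175 set gave 23.4%, 22.8%, 19.6%, 22.0% and 18.6% in WT mice. The HET mice had 21.5%, 25.6%, 26.3% and 25.7%, of which 3 of 4 lay above all WT mice. The HOMO mice had 25.4%, 25.6% and 27.3%, all above the WT mice. The log2 changes were 0.29 ± 0.09 in HET and 0.39 ± 0.10 in HOMO mice (SE). The HET change was past the threshold when HET replicate 1, the mouse at 21.5%, was left out, and the HOMO change was not when HOMO replicate 3, the mouse at 27.3%, was left out.

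The difference in Ubtf lay in the junction that keeps the exon. In R6/2 it fell from a mean of 1254 counts per 1000000 counts (CPM) in WT to 781 in HD mice, a ratio of 0.623, while the junction without the exon was at 407 and 384. In Q150 mice the same ratio of the including junction was 0.842 (HET) and 0.694 (HOMO), in Q175 mice it was 0.829 (HET) and 0.760 (HOMO), and that of the excluding junction stayed between 0.969 and 1.02 in these 4 groups.

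**Figure D2:**
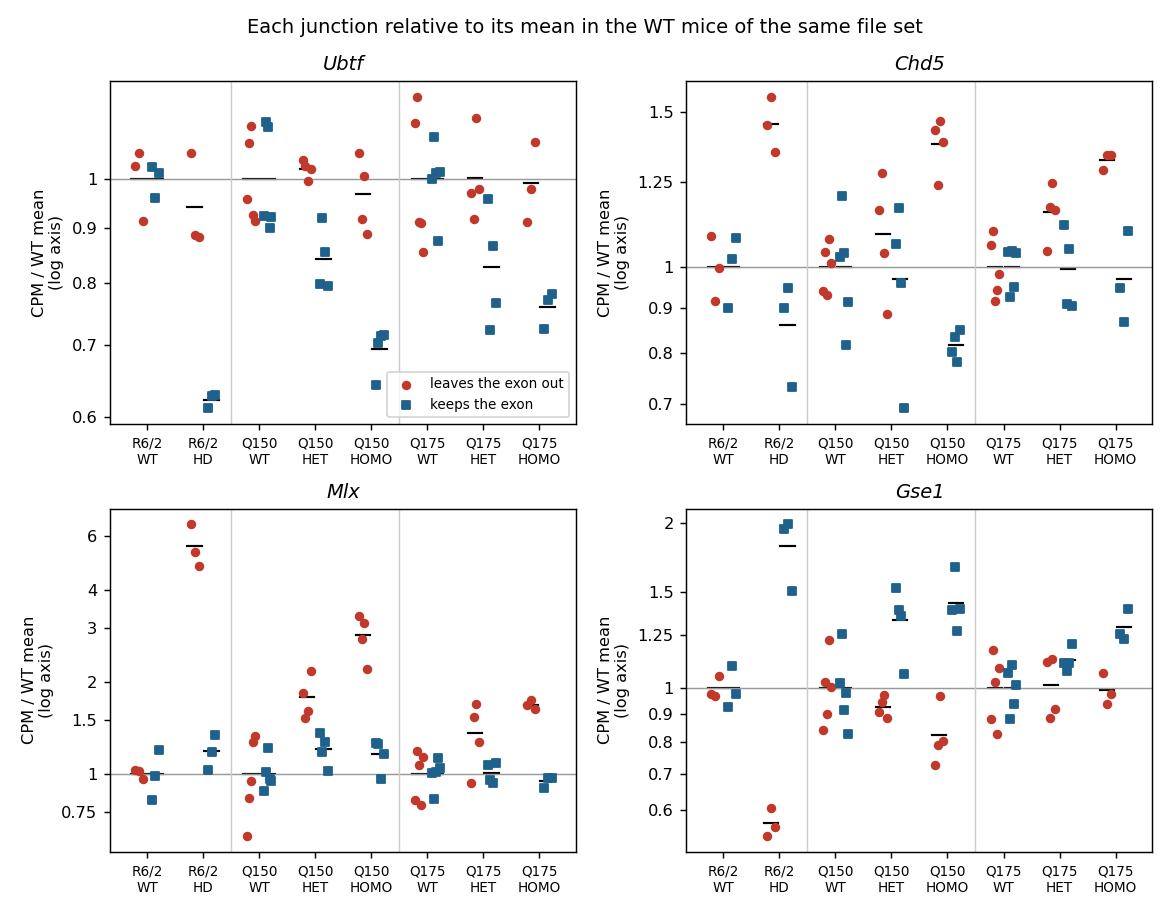
CPM of the junction without the exon (circles) and of the junction with it (squares), each divided by its mean in the WT mice of the same file set (y axis, log scale), per mouse and group (x axis), with group means as lines. Ubtf mutants are low in the including junction and Mlx mutants high in the excluding one, at 5.56 times the WT mean in R6/2. Gse1 shows both, the excluding junction at 0.568 and the including one at 1.81 in R6/2.

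Most Chd5 counts came from the junction without the exon in every group. Exclusion was 75.2%, 69.2% and 69.8% in R6/2 WT mice and 80.2%, 80.5% and 82.2% in HD mice, with no overlap. The log2 change was 0.76 ± 0.13 (SE, 3 against 3 mice). In the Q150 set the WT mice had 69.0%, 67.8%, 68.6%, 76.2% and 72.9%. In HET mice it was 72.7%, 72.7%, 72.5% and 75.7%, within the range of the WT mice. The HOMO mice had 81.3%, 78.4%, 82.0% and 79.9%, above all WT and all HET mice. The log2 change was 0.17 ± 0.12 in HET and 0.75 ± 0.12 in HOMO mice (SE), and the HOMO to HET difference of 0.57 had a 95% interval of 0.30 to 0.85. The HET change ranged over 0.11 to 0.27 with 1 mouse left out. Of the 4 genes, Chd5 alone had HOMO and HET mice of the Q150 set that did not overlap.

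In the Q175 set Chd5 exclusion was lower throughout, at 61.6%, 65.2%, 57.9%, 60.9% and 59.8% in WT mice. The HET mice had 59.5%, 66.9%, 65.1% and 66.9%, and overlapped with WT. The HOMO mice had 68.1%, 70.9% and 65.7%, all above WT. The log2 changes were 0.22 ± 0.10 and 0.46 ± 0.11 (SE). The HOMO change was not past the threshold without HOMO replicate 2, the mouse at 70.9%. Against all 10 knock-in WT mice the HET change became -0.10 and the HOMO change 0.13, since the WT mice of the 2 sets differed in this exon, as given further on.

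The junction without the Chd5 exon was the one that rose, from 541 to 787 CPM in R6/2 (ratio 1.46). For HOMO mice its ratio to WT was 1.38 (Q150) and 1.32 (Q175). The junction with the exon was at 0.860, 0.816 and 0.971 of WT in the same 3 groups.

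Most Mlx counts in WT mice came from the junction that keeps the exon, and in R6/2 HD mice the 2 junctions had near equal counts. Exclusion was 20.9%, 17.9% and 14.5% in R6/2 WT mice and 57.4%, 48.9% and 43.0% in HD mice. The groups stood 22.1 points apart at their nearest mice. The log2 change was 2.19 ± 0.27 (SE, 3 against 3 mice), and 12 of 1743 events rose further. In the Q150 set the WT mice had 14.1%, 16.0%, 15.4%, 23.5% and 24.6%, and so fell into a lower group of 3 and a higher group of 2. In HET mice it was 23.9%, 23.1%, 22.6% and 33.1%, and 1 of 4 lay above all WT mice. The HOMO mice had 37.7%, 34.0%, 42.8% and 30.7%, all above WT. The log2 changes were 0.60 ± 0.24 in HET and 1.32 ± 0.24 in HOMO mice (SE), and 25 of 1785 events rose further than Mlx in the latter.

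Mlx exclusion in the Q175 set was 14.3%, 22.6%, 17.8%, 12.6% and 18.3% in WT mice. The HET mice had 15.2%, 24.7%, 27.0% and 19.3%, and the HOMO mice 27.6%, 26.8% and 25.6%. Of the HET mice 2 of 4 lay above all WT mice. All HOMO mice did, by 2.92 points at the nearest mice, where the counting interval of the HOMO mice is up to 11.01 points wide. The log2 changes were 0.41 ± 0.22 and 0.84 ± 0.24 (SE). The HET change was 0.25 without HET replicate 3 and 0.60 without HET replicate 1. The HOMO change was not past the threshold without WT replicate 6 or 9 or without any single HOMO mouse, although its size stayed between 0.71 and 0.97.

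Counts of the excluding Mlx junction carried the change. They were 28, 21 and 32 in R6/2 WT mice and 214, 200 and 197 in HD mice, which as means is 9.49 against 52.7 CPM, a ratio of 5.56. For Q150 mice the ratio was 1.78 (HET) and 2.84 (HOMO), and for Q175 mice 1.35 (HET) and 1.68 (HOMO). The including junction was between 0.946 and 1.21 of WT in all 5 groups. In the study's own RT-PCR of Mlx, neither knock-in line had a significant difference between genotypes.

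Most Gse1 counts came from the junction without the exon. Exclusion went down in mutant mice, so that a larger share of counts came from the junction that keeps the 36 codons. Exclusion was 86.5%, 84.2% and 86.7% in R6/2 WT mice and 62.6%, 64.8% and 69.2% in HD mice, with 15.03 points between the nearest mice. The log2 change was -1.67 ± 0.14 (SE, 3 against 3 mice), and 15 of 1743 events fell further. In the Q150 set the WT mice had 82.9%, 82.9%, 85.4%, 88.1% and 87.8%. In HET mice it was 77.9%, 80.2%, 80.9% and 83.1%, and 3 of 4 lay below all WT mice. The HOMO mice had 75.6%, 73.7%, 81.8% and 77.4%, all below WT. The log2 changes were -0.52 ± 0.15 in HET and -0.80 ± 0.15 in HOMO mice (SE). The HET change was past the threshold when WT replicate 2 or HET replicate 4 was left out, with centring on the median event, and when WT and HET mice were fitted alone.

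Gse1 exclusion in the Q175 set was 82.5%, 88.4%, 84.2%, 83.4% and 86.0% in WT mice, 85.1%, 82.4%, 85.3% and 81.3% in HET mice and 82.9%, 81.3% and 80.0% in HOMO mice. Both mutant groups overlapped with WT. The log2 changes were -0.15 ± 0.12 and -0.37 ± 0.13 (SE), with 95% intervals of -0.39 to 0.08 and -0.63 to -0.12. The HET change was -0.046 without WT replicate 7 and -0.077 without HET replicate 4. Without WT replicate 6, the lowest WT mouse, the HOMO change was past the threshold.

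Both Gse1 junctions moved in R6/2, and in opposite directions. The excluding junction was at 865 CPM in WT and 491 in HD mice, and the including junction at 143 and 259. In the knock-in mice the including junction was at 1.33 (HET) and 1.43 (HOMO) of WT in Q150 and at 1.13 (HET) and 1.29 (HOMO) in Q175, and the excluding junction at 0.926 and 0.821 and at 1.01 and 0.994.

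**Figure D3:**
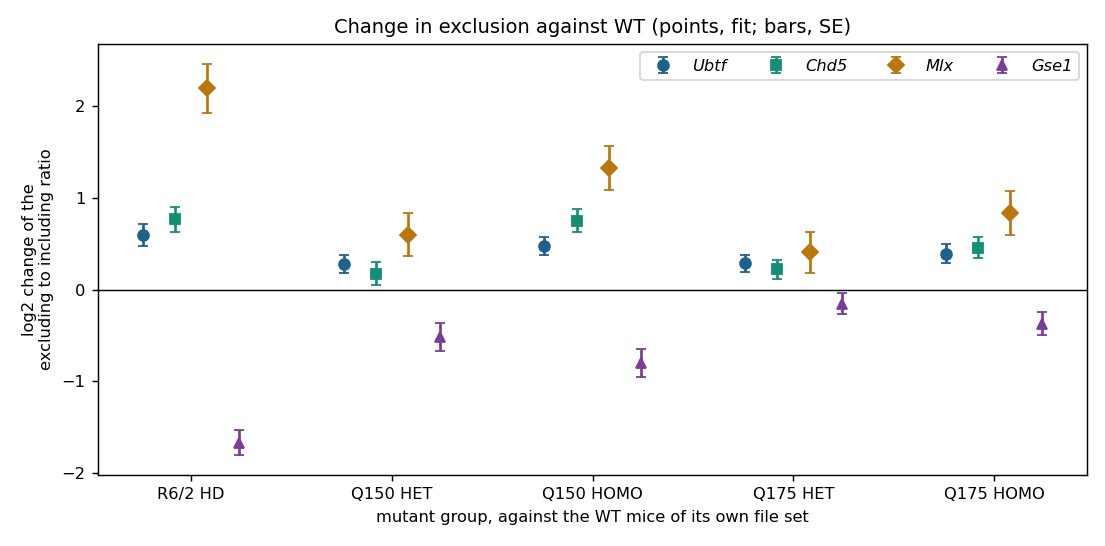
Log2 change in the ratio of excluding to including counts against WT (y axis; points, fitted value; bars, SE) for the 5 mutant groups (x axis). Ubtf, Chd5 and Mlx lie above 0 and Gse1 below 0 in all 5, with the R6/2 values farthest from 0 at 2.19 for Mlx and -1.67 for Gse1.

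The median event of all those measured also had a higher ratio in mutants, by 0.18 in R6/2, 0.10 in Q150 HET and 0.19 in Q150 HOMO mice on the log2 scale. Relative to the median event of each mouse, the R6/2 changes were 0.45 for Ubtf, 0.62 for Chd5, 2.05 for Mlx and -1.81 for Gse1. In Q150 HOMO mice they were 0.28, 0.55, 1.12 and -1.003, and all 4 kept their direction. In Q150 HET mice the change of Chd5 became 0.07 and that of Ubtf 0.18.

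The counts of both junctions together give a readout of how much of each transcript region was ligated, scaled to CPM, and it comes from the same contrasts that chose the genes. The total is the sum of the 2 junctions whose ratio gives the exclusion. It therefore moves when either junction moves alone, and is not separate from the exclusion change. In R6/2 the totals of all 4 events passed the threshold, as did 44.4% of totals tested. Ubtf fell by 0.51 ± 0.07 on the log2 scale (SE), with 1706, 1635 and 1644 CPM in WT and 1198, 1148 and 1149 in HD mice. Gse1 fell by 0.43 ± 0.08, and Chd5 rose by 0.36 ± 0.08. Mlx rose by 0.97 ± 0.13, from 46.5, 53.9 and 62.6 to 108, 103 and 106 CPM. In Q150 HOMO mice 2 of 4 passed, against 14.1% of totals, with Ubtf at -0.39 and Mlx at 0.56. In Q175 HOMO mice 2 of 4 passed, against 12.8%, with Ubtf at -0.30 and Chd5 at 0.25. In HET mice none of the 4 passed, where 0.84% (Q150) and 0.109% (Q175) of totals did. Ubtf totals were at -0.17 in Q150 HET and -0.21 in Q175 HET mice. They were thus lower in every mutant group, and passed in R6/2 and in both HOMO groups. In Q175 HOMO mice the change did not pass on leaving out HOMO replicate 1 or 2, or with series of mouse numbers as a term. The Chd5 call in Q175 HOMO mice was lost without HOMO replicate 3. The median total of all events rose by 0.13 in R6/2, and with median-ratio scaling in place of CPM the 4 changes were -0.63 for Ubtf, -0.55 for Gse1, 0.24 for Chd5 and 0.85 for Mlx.

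**Figure D4:**
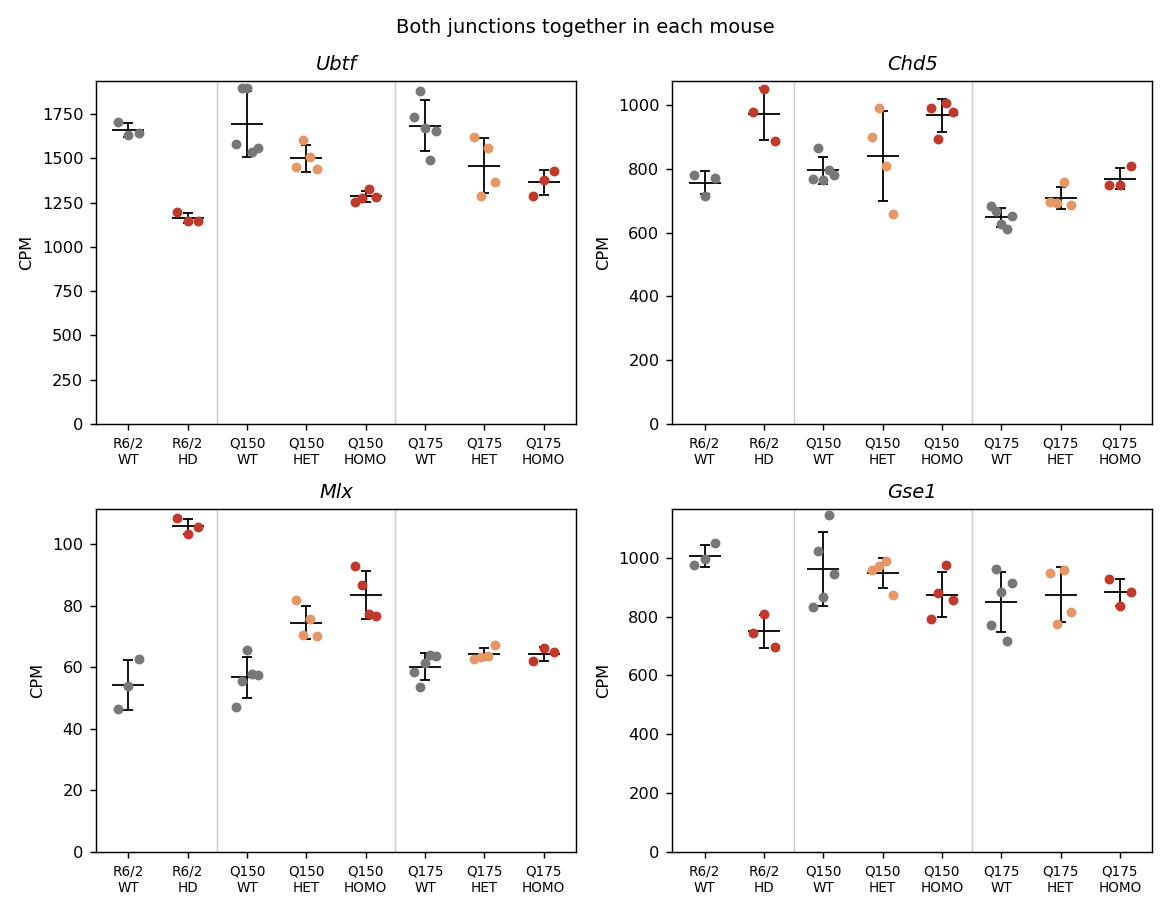
CPM of both junctions together (y axis, from 0) in every mouse (points) by group (x axis), with the mean and SD as bars. Ubtf is lower and Mlx higher in R6/2 HD than in WT mice without overlap, and the Q175 mice of Mlx lie near their WT mice.

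Among WT mice alone, Chd5 differed between the file sets. No mutant mouse enters this contrast, but the same WT mice were the reference in the knock-in changes from which the genes were picked. Its exclusion was 57.9% to 65.2% in the 5 WT mice of the Q175 set and 67.8% to 76.2% in the 5 of the Q150 set, with no overlap, a log2 difference of -0.64 ± 0.12 (SE) and a limma adjusted p of 0.00365, where 2.31% of 1731 events passed. Ubtf differed by -0.20 (limma adjusted p = 0.294), Mlx by -0.15 (limma adjusted p = 0.820) and Gse1 by -0.06 (limma adjusted p = 0.887), and these WT mice overlapped. The 95% intervals of these 3 differences were -0.39 to -0.01, -0.63 to 0.33 and -0.35 to 0.22. Age, line and file set cannot be told apart in this difference.

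The mice of the Q150 set bear numbers of a low and a high series, and 3 of the 4 events differed between them within groups. High-series mice had higher Gse1 exclusion by 0.43 ± 0.09 on the log2 scale (SE; limma adjusted p = 0.000969), higher Mlx exclusion by 0.53 ± 0.17 (limma adjusted p = 0.0357) and higher Chd5 exclusion by 0.27 ± 0.08 (limma adjusted p = 0.0230), where 15.2% of 1785 events passed. Ubtf differed by -0.02 (limma adjusted p = 0.930). The Mlx call was lost on leaving out any 1 of 7 mice (WT replicates 1, 3, 4 and 5, HET replicates 3 and 4 and HOMO replicate 3), and the Chd5 call without WT replicate 4 or HET replicate 4. The 2 WT mice with high Mlx exclusion were those of the high series, at 23.5% and 24.6%, and the 3 of the low series were at 14.1% to 16.0%.

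The changes in Q150 mice had the same direction within each series. These are the mice and contrasts on which the genes were picked, so nothing is read from the kept direction. HOMO minus WT in the low series (2 against 3 mice) was 0.56 for Ubtf, 0.87 for Chd5, 1.63 for Mlx and -0.81 for Gse1 on the log2 scale. In the high series (2 against 2 mice) it was 0.39, 0.54, 0.86 and -0.90. The Mlx difference was thus smaller in the high series, whose WT mice had more exclusion, and the difference between the series was not tested. HET minus WT in the low series (3 against 3 mice) was 0.26 for Ubtf, 0.29 for Chd5, 0.75 for Mlx and -0.40 for Gse1, and in the high series (1 against 2 mice) 0.35, 0.08, 0.64 and -0.57. With series as a term the HET changes of Ubtf, Mlx and Gse1 in the Q150 set were 0.28, 0.68 and -0.45. These 3 passed, as did 7.68% of all events. In the Q175 set all HET mice were of the low and all HOMO mice of the high series, and against WT mice of their own series the changes were 0.48 for Ubtf, 0.50 for Chd5, 1.01 for Mlx and -0.34 for Gse1 in HOMO mice and 0.23, 0.19, 0.29 and -0.18 in HET mice.

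Other genes of the pathways in which these proteins act were thinly covered. RASL-seq listed 2 of 38 other genes of RNA polymerase I and the nucleolus, 3 of 24 of the CHD and NuRD remodellers, 1 or 2 of 24 of the Max network, and 5 or 6 of 29 of the LSD1, CoREST and HDAC complexes. A pair of Rcor3 events had equal counts in every mouse and was taken as 1 measurement. Over the 4 lists, 6 of 16 measurements (37.5%) passed in R6/2, where 28.6% of all events did. All 6 had higher exclusion, and 21.1% of all events passed with higher exclusion. The median log2 change was 0.31 where all events had 0.18. In Q150 HOMO mice 3 of 16 passed (18.8%), all higher, against 23.9% of all events, at a median of 0.16 against 0.19. In Q175 HOMO mice 1 of 16 passed (6.25%), against 7.07%, at 0.09 against 0.07. In either group of HET mice 0 of 16 passed, against 3.47% in Q150 and 0.598% in Q175, at 0.21 against 0.10 and 0.02 against 0.04.

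Of the partners of Ubtf, Taf1b, a subunit of the selectivity factor that recruits RNA polymerase I, had higher exclusion in R6/2 by 1.32 ± 0.17 (SE; limma adjusted p = 9.92e-05) and was at 0.17 and 0.07 in Q150 and Q175 HOMO mice, where it did not pass. Higher exclusion was also found for Tcof1, the nucleolar treacle protein, in Q150 HOMO mice by 0.87 ± 0.29 (limma adjusted p = 0.0330), where HOMO and WT mice overlapped. Of the NuRD genes, Mta1, a scaffold of the complex, had higher exclusion in R6/2 by 0.65 ± 0.18 (limma adjusted p = 0.0176) and in Q150 HOMO mice by 0.80 ± 0.20 (limma adjusted p = 0.00528), the latter with overlap. The other NuRD events listed, of Mta3 and Zmynd8, were at -0.46 and -0.26 in R6/2 and did not pass in any comparison. No event of the Max network passed, Max and Mxd4 being the genes listed.

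The complexes in which Gse1 is found had 4 of 9 measurements past the threshold in R6/2, all with higher exclusion, where 28.6% of all events passed and 21.1% passed with higher exclusion, at a median log2 change of 0.31. In Q150 and in Q175 HOMO mice 1 of 10 measurements passed, against 23.9% and 7.07% of all events, and in HET mice 0 of 10. Aof2, the older symbol of the LSD1 demethylase gene, rose by 1.26 ± 0.20 in R6/2 (SE; limma adjusted p = 0.000628) and was at 0.15 and 0.11 in Q150 and Q175 HOMO mice, where it did not pass. Zmym3, a zinc finger protein of these complexes, rose by 1.37 ± 0.34 in R6/2 (limma adjusted p = 0.00956) and by 0.84 ± 0.23 in Q150 HOMO mice (limma adjusted p = 0.0117), where HOMO and WT mice overlapped. Rreb1, a zinc finger transcription factor, rose by 0.73 ± 0.24 in R6/2 (limma adjusted p = 0.0414) and by 0.66 ± 0.16 in Q175 HOMO mice (limma adjusted p = 0.00806). The pair of Rcor3 events with equal counts, Rcor3 being a CoREST protein, was at 0.99 ± 0.33 (limma adjusted p = 0.0383), and the other Rcor3 events were at 0.30 and -0.42 and did not pass. In R6/2 and HOMO mice, the remaining values of these events, none past the threshold, were 0.21 in R6/2 and 0.13 in Q175 HOMO mice for Tcof1, 0.25 in Q175 HOMO mice for Mta1, 0.33 in Q175 HOMO mice for Zmym3, 0.19 in Q150 HOMO mice for Rreb1, and 0.16 and 0.67 in Q150 and Q175 HOMO mice for the Rcor3 pair. In HET mice none of the events that passed elsewhere did so, with values in Q150 from -0.030 (the Rcor3 pair) to 0.45 (Zmym3) and 0.62 (Mta1), and in Q175 from -0.011 (Tcof1) to 0.27 (Rreb1).

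The events with the pattern most like that of each gene over the 31 mice were sought by the Pearson correlation of the log2 ratio, less the WT mean of its file set, among 1618 events of other genes. For Ubtf these were Trp53i11 (r = 0.88), Sort1 (r = 0.86) and Rnf112 (r = 0.86). For Chd5 they were Acss2 (r = 0.89), Rnf112 (r = 0.86) and Whsc1l1 (r = 0.86), the last an alternative 5′ splice site. For Mlx they were Acss2 (r = 0.93), Gripap1 (r = 0.91) and Sfrs8 (r = 0.91). For Gse1, Brd2 (r = 0.84), an alternative 3′ splice site, and Eif2a (r = 0.84) were among them. The values share their libraries and the differences between groups, and the correlations are given as a description. Acss2, whose enzyme makes acetyl-CoA from acetate, changed by 1.97 in R6/2, by 0.56 (HET) and 1.42 (HOMO) in Q150 and by 0.37 (HET) and 0.67 (HOMO) in Q175 mice, beside 2.19, 0.60, 1.32, 0.41 and 0.84 for Mlx. Brd2, a bromodomain protein that binds acetylated histones, changed by -1.05, -0.38, -0.68, -0.02 and -0.07 in the same order, beside -1.67, -0.52, -0.80, -0.15 and -0.37 for Gse1. Other events of these lists moved likewise. In that order Sfrs8 changed by 1.98, 0.74, 1.45, 0.24 and 0.73, Gripap1 by 2.00, 0.51, 1.11, 0.10 and 0.69, and Eif2a by -1.40, -0.51, -0.43, -0.24 and -0.13.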

How the data were processed

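RASL-seq counts of cortex RNA from 31 mice were analysed. The authors deposited, per mouse, a table of whole-number counts for the shorter and the longer junction of each event. The counts are printed with digit separators, and the main fits used log2 values rather than a count model. The aligner is not given in the sources used here. The tables hold 3 event lists (1743, 1785 and 1839 events), which were fitted separately. Exclusion was 100 × short / (short + long). The measure tested was log2 of (short + 0.5) / (long + 0.5), fitted with limma 3.58.1 in R 4.3.3 as group means over all mice of an event list, with a variance trend and Benjamini-Hochberg adjustment over all events, and a threshold of 0.05. Totals were log2 (short + long + 0.5) per 1000000 counts and were fitted likewise. A file lists no junction count under 4. On simulated counts with 2-fold changes of the ratio in 200 events, the exclusion fit recovered 36.5% for R6/2, 63.5% for Q150 HOMO and 64% for Q175 HOMO mice. The simulation added binomial sampling to the observed spread, which already holds counting error.

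The 4 genes and the gene lists were chosen with earlier results of these data known. Named were all events of the 4 genes, up to 6 events of each list past the threshold per comparison, and the 3 events most correlated with each gene of those whose mean was 50 counts or more. One of these events is not reported here. Mice are separate animals. Alternatives were a pseudocount of 5, centring on the median event, series of mouse numbers, all 10 knock-in WT mice, each mouse left out, no variance trend, at least 50 counts, the compared groups alone, a quasi-binomial model and median-ratio scaling. The sequence is GRCm38 with GENCODE M21 transcripts, and figures were drawn with matplotlib 3.10.9.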

Additional observations from a re-analysis of the deposited data

Results flagged for a closer look

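Exclusion and total of the 4 genes were examined in the same 5 groups of 4 or 5 mice, which is 40 sets of values that share their mice. The rule was Dixon's ratio of the gap to the range. By it the highest or lowest mouse stood apart in 4 of the 40 sets, where normal values would give about 1 in 20, or 2 of 40. The Chd5 exclusion of Q150 HET replicate 4 was 75.7%, where the other 3 HET mice lay between 72.5% and 72.7%. The Mlx exclusion of the same mouse was 33.1%, against 22.6% to 23.9% in the other 3, and it is the HET mouse of the high series of numbers. The Ubtf exclusion of Q175 HET replicate 1 was 21.5%, against 25.6% to 26.3%, and this mouse was also the lowest of its group for Chd5 and Mlx. Its title and its file give it different numbers. The Chd5 total of Q175 HET replicate 3 was 758 counts per 1000000, against 688 to 696 in the other 3 HET mice.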

How the results depend on the processing

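Under each setting fitted for them, the quasi-binomial model and left-out mice included, the exclusion changes of the 4 genes kept their sign except in 1 case. With all 10 knock-in WT mice the Chd5 changes became 0.49 (Q150 HET), 1.07 (Q150 HOMO), -0.10 (Q175 HET, reversed from 0.22) and 0.13 (Q175 HOMO), and centring on the median event brought the Q150 HOMO changes of Chd5 to 0.55 and of Ubtf to 0.28 and the Q150 HET change of Chd5 to 0.07. Without a variance trend 0 of the 4 exclusion changes passed in Q175 HOMO mice, with all 10 WT mice also 0, and with the quasi-binomial model all 4. The cause was not tested.

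The number of events past the threshold in Q150 HET mice (62) became 40 with centring, 30 without the variance trend, 137 with series as a term and 143 with all 10 WT mice. In Q175 HET mice (11) it became 1 without the trend, 22 with the quasi-binomial model and 4 with series as a term, and in Q175 HOMO mice (130) it became 39 without the trend, 82 with series as a term and 83 with all 10 WT mice. Leaving out 1 mouse gave 4 to 63, 2 to 33 and 74 to 125 events in these 3 comparisons. Totals past the threshold with series as a term were 99 (Q150 HET, from 15), 505 (Q150 HOMO, from 252), 1 (Q175 HET, from 2) and 101 (Q175 HOMO, from 236), and 10 in Q175 HET mice with median-ratio scaling; with 1 mouse left out they ranged over 3 to 28, 94 to 271, 0 to 18 and 129 to 221. Centring changed the share of passing events with higher exclusion from 73.9% to 59.3% in R6/2, 87.1% to 57.5% in Q150 HET, 82.9% to 52.0% in Q150 HOMO, 63.6% to 44.4% in Q175 HET and 79.2% to 70.1% in Q175 HOMO mice, and median-ratio scaling that of higher totals from 66.5% to 46.6% in R6/2, 66.3% to 42.4% in Q150 HOMO, 50% to 10% in Q175 HET and 54.7% to 41.2% in Q175 HOMO mice.

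With series as a term the total of Chd5 passed in Q150 HOMO mice (0.29) and that of Mlx in Q150 HET mice (0.39), and that of Ubtf no longer passed in Q175 HOMO mice (-0.20). With 1 mouse left out the totals of Chd5 ranged over -0.021 to 0.17 (Q150 HET), 0.26 to 0.32 (Q150 HOMO, past the threshold without WT replicate 2) and 0.21 to 0.27 (Q175 HOMO), those of Gse1 over -0.063 to 0.051 (Q150 HET) and -0.014 to 0.10 (Q175 HET), and that of Ubtf in Q175 HOMO mice over -0.35 to -0.26. The differences between series ranged over 0.21 to 0.33 for Chd5, 0.46 to 0.68 for Mlx and -0.057 to 0.044 for Ubtf, and the Gse1 difference between WT sets over -0.17 to 0.015. No paired analysis was possible because the labels number single mice, no number is shared between groups that were compared, and the replicate numbers of the knock-in mice given here are only names in accession order. Depth limits Mlx most, at 117 to 458 counts per mouse.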
